A study of Mus musculus with 8 samples.

Results

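The kinesin genes code for the motor proteins that walk along microtubules, together with the adaptor subunit Kifap3 of one such motor. Members were chosen by name alone, as genes called Kif followed by a digit, plus Kifc1, Kifc2, Kifc3 and Kifap3, which gave 42 of the 23343 genes in the RNA tables. By known role, 14 were spindle and cytokinesis kinesins, 10 were cilium and flagellum kinesins, 14 were cargo transport kinesins and 4 fell under none of these. The gene Kifc5b, a close copy of Kifc1, and the kinesin Cenpe carry other names and were not members.

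Kinesins turn the energy of ATP into steps along microtubules, most of them toward the plus end. In dividing cells they build the spindle, move chromosomes and organise the midzone where the daughter cells separate. In the testis, pachytene spermatocytes (PS) are approaching the meiotic divisions, whereas round spermatids (RS) are haploid cells that no longer divide and begin to assemble a flagellum and reshape the nucleus with a microtubule manchette. Both processes use kinesins for transport.

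RNA-seq was performed on PS and RS of adult C57BL/6 mice lacking both Rnf8 and Scml2 (Rnf8;Scml2-dKO, here dKO), and H3K27ac ChIP-seq on PS and RS of adult wild-type C57BL/6 mice. Each of these 4 groups had 2 replicates, 8 samples in all, and all cells came from testes by gravity sedimentation on BSA, at a scale that let PS and RS of the dKO be taken from a single male. H3K27ac is an acetyl mark on histone H3 found at active promoters and enhancers. Both RNA groups carry the double deletion and both H3K27ac groups are wild-type, so RNA and acetylation below never come from the same genotype, and wild-type RNA was not analysed here. The stages are compared in each assay to ask which kinesin genes differ between meiotic and postmeiotic cells.

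The RNA libraries held 9655405 to 12289694 reads on genes. Reads assigned to the deleted genes numbered 50 to 110 per library for Rnf8 and 40 to 98 for Scml2; totals per gene do not separate the deleted part, so they do not check the labels. The 12 round spermatid markers summed to 571 and 955 RPKM (reads per kilobase of transcript, scaled to library size) in PS and to 14750 and 15460 in RS, and the 12 pachytene markers to 1160 and 1117 against 637 and 660. By the edgeR test described below, 6 of these 12 pachytene markers were lower in RS and 4 were not called. The other 2, Syce2 and Tex11, were higher. Piwil1 alone went from 286 and 326 RPKM in PS to 9.91 and 17.6 in RS. The 7 Leydig cell markers, none at 0 in all libraries, summed to 786 and 568 RPKM in PS and to 72.1 and 45.2 in RS. The 6 blood and macrophage markers found, with Hba-a1 and Hbb-b1 at 0 in every library, summed to 1.09 and 1.20 in PS and to 12.6 and 10.98 in RS. Sums for the 9 Sertoli markers were 72.0 and 33.8 against 44.9 and 28.6, those for the 10 spermatogonia markers 56.6 and 39.3 against 64.5 and 62.2, and those for the 6 peritubular and vessel markers between 6.87 and 7.61 throughout. The Leydig and blood sums thus moved with stage. By edgeR, 3 of 6 tested Sertoli and 3 of 10 spermatogonia markers were higher in RS, and 0 were lower. Of the 6 peritubular and vessel markers, 1 was higher and 1 lower. Over all genes tested, 30.4% were higher and 27.6% lower. The part of these cell types in the results below was not tested.

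The promoters of 6 members to which the results return are printed here, because they hold the letters counted next and include genes in which acetylation or RNA differed most between the stages. Each runs 5′ to 3′ on the strand of its gene, from 250 bases before the RefSeq start to 50 after it, in GRCm38.p6. Capitals mark CHR (TTTGAA), an element of cell cycle promoters; CRE (TGACGTCA), the element bound by CREM in spermatids; its shorter core TGACG, which the full CRE contains on each strand; and the CCAAT box (CCAAT), bound by NF-Y, all searched on both strands.
Kif17, chr4:138262001-138262300, plus strand: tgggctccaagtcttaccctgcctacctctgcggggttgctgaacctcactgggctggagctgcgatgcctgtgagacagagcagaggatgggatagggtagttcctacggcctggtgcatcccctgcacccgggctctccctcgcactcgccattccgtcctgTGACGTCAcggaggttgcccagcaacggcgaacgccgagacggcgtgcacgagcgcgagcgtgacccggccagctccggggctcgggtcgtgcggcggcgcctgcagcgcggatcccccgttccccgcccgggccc
Kif2b, chr11:91577506-91577805, minus strand: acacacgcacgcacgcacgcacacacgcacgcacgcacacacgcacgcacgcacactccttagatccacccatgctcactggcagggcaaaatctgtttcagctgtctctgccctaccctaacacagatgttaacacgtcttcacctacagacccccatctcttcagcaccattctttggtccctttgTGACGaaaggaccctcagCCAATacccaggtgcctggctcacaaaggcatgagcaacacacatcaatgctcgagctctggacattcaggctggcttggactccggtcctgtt
Kif2c at its downstream start, chr4:117178723-117179022, minus strand: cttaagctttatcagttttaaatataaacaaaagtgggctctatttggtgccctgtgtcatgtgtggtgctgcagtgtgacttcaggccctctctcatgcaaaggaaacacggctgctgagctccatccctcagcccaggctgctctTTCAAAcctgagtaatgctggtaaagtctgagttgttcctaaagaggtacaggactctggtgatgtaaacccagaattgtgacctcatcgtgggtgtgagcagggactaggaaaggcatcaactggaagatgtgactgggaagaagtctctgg
Kif11, chr19:37376132-37376431, plus strand: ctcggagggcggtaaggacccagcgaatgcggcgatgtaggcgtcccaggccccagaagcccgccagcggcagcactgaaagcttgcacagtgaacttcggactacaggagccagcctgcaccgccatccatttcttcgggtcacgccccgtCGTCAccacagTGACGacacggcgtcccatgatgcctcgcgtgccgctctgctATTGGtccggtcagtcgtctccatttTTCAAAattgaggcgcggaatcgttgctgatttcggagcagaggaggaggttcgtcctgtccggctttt
Kif4, chrX:100625815-100626114, plus strand: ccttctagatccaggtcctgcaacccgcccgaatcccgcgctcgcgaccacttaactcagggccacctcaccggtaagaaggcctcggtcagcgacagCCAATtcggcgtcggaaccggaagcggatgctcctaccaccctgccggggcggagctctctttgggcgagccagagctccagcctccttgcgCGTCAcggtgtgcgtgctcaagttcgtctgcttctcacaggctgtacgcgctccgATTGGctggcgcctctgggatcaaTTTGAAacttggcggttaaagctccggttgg
Kif18a, chr2:109280488-109280787, plus strand: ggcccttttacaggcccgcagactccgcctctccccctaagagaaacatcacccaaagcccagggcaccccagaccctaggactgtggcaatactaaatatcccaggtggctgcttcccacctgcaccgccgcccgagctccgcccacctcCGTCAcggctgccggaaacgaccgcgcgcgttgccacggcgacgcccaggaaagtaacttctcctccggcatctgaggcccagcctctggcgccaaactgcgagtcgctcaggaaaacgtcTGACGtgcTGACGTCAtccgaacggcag

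RefSeq promoters were found for 33 of the 42 members, and the start listed first was counted for each gene. CHR letters were present in 12 of these 33 promoters (36.4%), against 18.1% of 27025 gene promoters of the same length. They stood in 10 of 13 spindle promoters, in 1 of 9 of the cilium genes (Kif27) and in 0 of 8 of the cargo genes, although another Kif1a start, which was not counted, holds them. The Kif2c promoter among those 10 is that of its downstream start, 3852 bases from the deposited one. The CCAAT box was in 16 of 33 (48.5%, against 37.9% of all), namely in 8 of 13 spindle, 6 of 9 cilium and 1 of 8 cargo promoters. The core TGACG was in 16 of 33 (48.5%, against 21.0%) and the full CRE in 3 of 33 (9.09%, against 1.88%), those of Kif17, Kif18a and Kif5c. MYB letters (GGCAGTT) were in 0 of 33 (against 4.14%), TATAAA in 4 (12.1%, against 14.2%) and GTTGCC, an arm of the X-box of cilium genes, in 8 (24.2%, against 12.7%). The median GC content was 62.3% in member promoters and 52.7% over all, and the median CpG ratio, observed over that given by the base composition, was 0.84 against 0.39. The core TGACG and the full CRE each hold a CpG, and none of the shares was adjusted for base composition. A match describes letters and not a bound site, and no test was made of these shares.

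Reads on the kinesin family took up a larger share of the dKO RS libraries than of the PS libraries. They made up 0.342% and 0.362% of reads on genes in PS and 0.543% and 0.542% in RS. Summed per length, the family held 727 and 780 RPKM in PS and 1310 and 1260 in RS, and the RS values lay above both PS values. Much of the rise in reads sat in a pair of genes. Kif17 took 1.73% and 2.38% of kinesin reads in PS and 11% and 11.4% in RS. Kif2b took 2.31% and 2.83% in PS and 13.9% and 10.8% in RS.

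The order of levels changed between the stages. In dKO PS, the 6 members with the highest mean RPKM were Kif9 (128), Kif3b (84.1), Kif2a (68.5), Kif27 (51.8), Kif20a (49.3) and Kif2c (39.3), and together they held 55.9% and 55.8% of the family's RPKM. The PS libraries of Kif27 (51.2 and 52.4) and Kif20a (51.6 and 46.9) overlapped, so these neighbours did not differ beyond their spread. In dKO RS, the leading 6 were Kif2b (258.5), Kif17 (136), Kif9 (130.1), Kif27 (128), Kif2c (120.3) and Kifap3 (104), with 69.8% and 66.4% of the family's RPKM. Behind Kif2b, both libraries of Kif17, Kif9 and Kif27 lay between 128 and 138 RPKM. At the other end, Kif12 had 0 reads in all 4 libraries, which allows up to 3 reads per library (counting error only), and 4 to 10 members lay under 1 RPKM in each library.

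**Figure D1:**
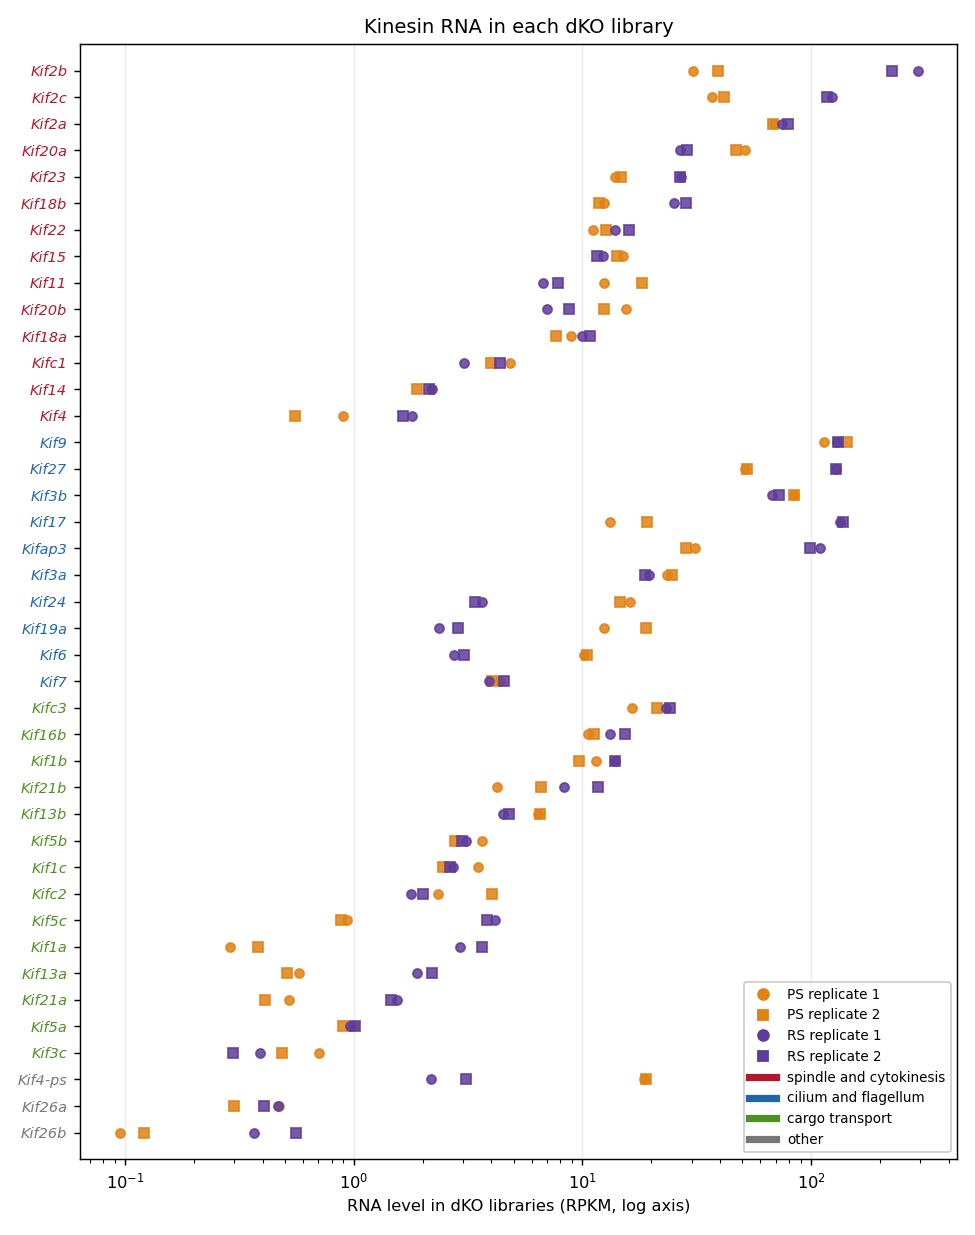
RNA level (RPKM, log axis) of 41 kinesin genes in each dKO library, with PS in orange and RS in purple and a marker for each replicate. Genes are grouped by role and ordered by level; Kif12, at 0, is not drawn. Kif2b, Kif2c, Kif17, Kif27 and Kifap3 have both RS libraries above 98 RPKM and both PS libraries under 53.

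Stage differences were tested with edgeR's quasi-likelihood test over 14647 genes, and a gene was called at a Benjamini-Hochberg adjusted p under 0.05 and a change of at least 1.5-fold. Of the 41 members tested, 14 were higher in RS (34.1%, against 30.4% of all genes tested) and 7 were lower (17.1%, against 27.6%), and 20 were not called. The median log2 difference, RS over PS, was 0.20 over the members and 0.01 over all genes. The share called higher was near the background. In these bulk samples, fewer cells of a type and less RNA per cell cannot be told apart.

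**Figure D2:**
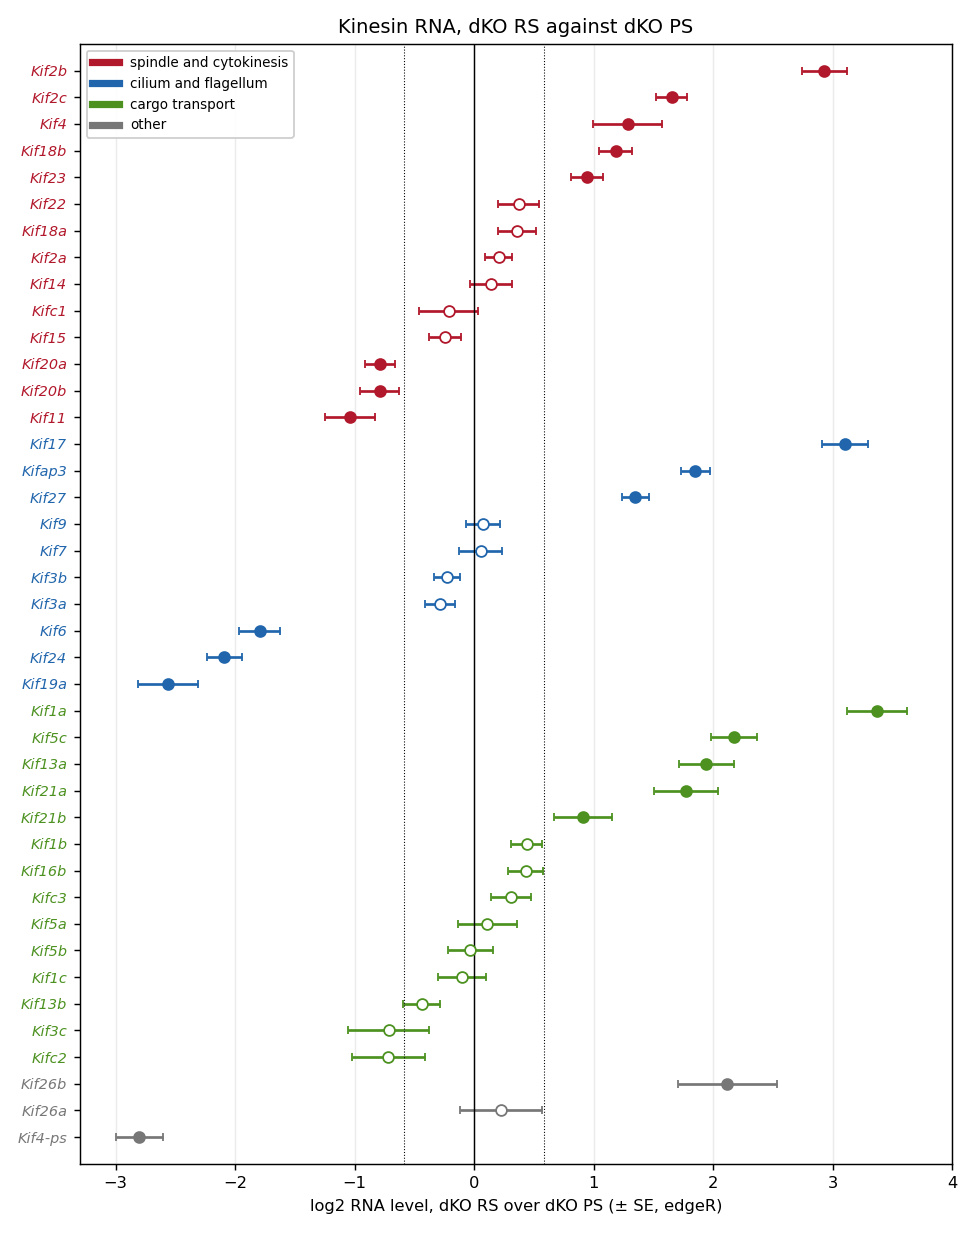
Log2 difference of the RNA level, dKO RS over dKO PS, for the 41 members tested, with a standard error derived from edgeR's F statistic. Filled points were called and open points were not, and dotted lines mark 1.5-fold. The spindle, cilium and cargo groups each span both sides of 0, and the 7 called lower are Kif11, Kif20a, Kif20b, Kif6, Kif24, Kif19a and Kif4-ps.

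Among the 14 spindle and cytokinesis kinesins, 5 rose in RS, 3 fell and 6 were not called (all genes: 30.4% rose, 27.6% fell). Their median log2 difference was 0.28, against 0.01 over all genes. The strongest rise was in Kif2b, a kinesin-13 that depolymerises microtubules at kinetochores, at chr11:91575286-91577555 (mm10, minus strand). Its level was 30.5 and 39.2 RPKM in PS and 292 and 225 in RS, a 7.62-fold difference (log2 2.93 ± 0.19 SE, adjusted p = 6.30e-06 by edgeR). Both RS libraries lay above both PS libraries. Kif2c, the kinesin-13 known as MCAK, at chr4:117159636-117182624, had 36.9 and 41.7 RPKM in PS and 123 and 117 in RS, a 3.15-fold difference (log2 1.65 ± 0.13, edgeR adjusted p = 1.42e-05). Kif2a, a related kinesin-13 found in many tissues, had 69.0 and 68.0 RPKM in PS and 74.2 and 79.5 in RS, and did not pass the test (log2 0.20 ± 0.11, edgeR adjusted p = 0.145).

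The other risen spindle genes were Kif4, Kif23 and Kif18b. Kif23, which with Racgap1 forms the centralspindlin complex of the midzone, had 13.9 and 14.8 RPKM in PS and 26.8 and 26.7 in RS (1.92-fold). Kif18b, a kinesin-8 of the plus ends of astral microtubules, was 2.27-fold higher; it lies outside the rule for named genes and completes the count. Kif4, a chromokinesin and the family's X-linked member (chrX:100626065-100727271), had 0.894 and 0.554 RPKM in PS and 1.79 and 1.64 in RS, a 2.44-fold difference on 29 to 118 reads per library (edgeR adjusted p = 0.00454).

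The spindle genes that fell were Kif11, Kif20a and Kif20b. Kif11, the kinesin-5 that pushes spindle poles apart, at chr19:37376403-37421859, had 12.4 and 18.1 RPKM in PS and 6.70 and 7.80 in RS (log2 -1.04 ± 0.21, edgeR adjusted p = 0.00246). Kif20a, a midzone kinesin that carries the Aurora B complex, had 51.6 and 46.9 RPKM in PS and 26.7 and 28.7 in RS (log2 -0.79 ± 0.12). Its span overlaps Brd8 and Cdc23 on the opposite strand, and the libraries did not keep strand, so reads from the overlap cannot be told apart. Kif20b, a related kinesin needed late in cytokinesis, had 15.6 and 12.5 RPKM against 7.01 and 8.74 (log2 -0.79 ± 0.17), and its call was lost without RS replicate 1 (log2 -0.55, adjusted p = 0.065). In each of these 3 genes both PS libraries lay above both RS libraries, and the stages were apart in every other called member too.

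Of the spindle genes not called, Kif18a, a kinesin-8 that limits chromosome movement at the metaphase plate, had 8.91 and 7.67 RPKM in PS and 9.95 and 10.8 in RS (log2 0.36 ± 0.16, edgeR adjusted p = 0.0754). Kifc1, a minus-end directed kinesin-14 known in spermatids for the acrosome and the nucleus, had 4.80 and 3.99 RPKM in PS and 3.05 and 4.35 in RS, and these overlapped (log2 -0.21, and 0.12 without RS replicate 1). Its near copy Kifc5b had 2.57 and 3.56 against 1.31 and 1.39 RPKM, 2.22-fold lower in RS (edgeR adjusted p = 0.00703). Because the authors kept unique alignments only, the levels of both copies are uncertain. Kif14, Kif15 and Kif22 had log2 differences of 0.14, -0.25 and 0.37.

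Kif4-ps, a short copy of Kif4 on chromosome 12 (chr12:101145609-101149273) that RefSeq also lists as Kif4b and classes as a transcribed pseudogene, went the other way from its X-linked parent. It had 18.6 and 19.0 RPKM in PS and 2.18 and 3.08 in RS, a 6.97-fold drop (log2 -2.80 ± 0.20, edgeR adjusted p = 8.07e-06). In PS, the copy thus stood above Kif4, at 0.554 to 0.894 RPKM, and in RS both were at 1.64 to 3.08. Reads of parent and copy could be split or lost in the alignment, which leaves both values uncertain.

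Among the 10 cilium and flagellum kinesins, 3 rose, 3 fell and 4 were not called (all genes: 30.4% rose, 27.6% fell). Their median log2 difference was -0.09, against 0.01 over all genes. Kif17, a homodimeric kinesin-2 that in spermatids moves the CREM coactivator ACT, at chr4:138262251-138301973, showed the largest rise of the group. It had 13.2 and 19.2 RPKM in PS and 134 and 138 in RS, an 8.59-fold difference (log2 3.10 ± 0.19, edgeR adjusted p = 5.44e-06). Kifap3, the subunit that joins cargo to the kinesin-2 motor of intraflagellar transport, at chr1:163779679-163917100, had 31.0 and 28.3 RPKM in PS and 109 and 98.7 in RS, a 3.61-fold difference (log2 1.85 ± 0.12, edgeR adjusted p = 7.19e-06). Kif3a and Kif3b are the motor subunits of the same complex. Kif3a had 23.4 and 24.6 RPKM in PS and 19.5 and 18.7 in RS (log2 -0.29 ± 0.13, edgeR adjusted p = 0.0739). Kif3b had 84.5 and 83.8 against 67.4 and 72.3 (log2 -0.23 ± 0.11, edgeR adjusted p = 0.102), and neither passed the test. Whether the Kifap3 difference departs from those of Kif3a and Kif3b was not tested.

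Kif27, a kinesin of motile cilia related to Kif7, at chr13:58287516-58354862, had 51.2 and 52.4 RPKM in PS and 128 and 128 in RS (2.55-fold, log2 1.35 ± 0.11, edgeR adjusted p = 1.97e-05). Kif7, which acts in hedgehog signalling at the cilium tip, had 3.904 to 4.54 RPKM in all libraries and a log2 difference of 0.05. Its span overlaps Ticrr on the opposite strand. Kif9, a kinesin-9 of the flagellar central apparatus and the highest member in PS, had 113 and 143 RPKM in PS and 129 and 131 in RS, so that the stages overlapped (log2 0.07 ± 0.15). Without PS replicate 1 the sign of that value turned (log2 -0.13).

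The fallen cilium genes were Kif19a, Kif24 and Kif6. Kif19a, a kinesin-8 that shortens microtubules at the tips of cilia, at chr11:114765389-114790575, had 12.4 and 19.0 RPKM in PS and 2.35 and 2.84 in RS, 5.90-fold lower (log2 -2.56 ± 0.25, edgeR adjusted p = 4.61e-05). Kif24, a kinesin-13 that acts at centrioles, had 16.2 and 14.6 against 3.64 and 3.38 RPKM, 4.26-fold lower. Kif6, the other kinesin-9, had 10.17 and 10.5 against 2.76 and 3.03 RPKM, 3.47-fold lower. For all 3, both RS libraries lay under both PS libraries. The stages were apart in every called member, so this adds no support to the calls.

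Among the 14 cargo transport kinesins, 5 rose, 0 fell and 9 were not called (all genes: 30.4% rose, 27.6% fell). Their median log2 difference was 0.37, against 0.01 over all genes, and no role group was tested against these shares. Of those that rose, 4 stayed under 5 RPKM in every library. By edgeR, 2 of the 14 (Kif13b and Kifc2) were lower at an unadjusted p under 0.05, and by DESeq2 0 were called lower, with 0 at an unadjusted p under 0.05. Kif1a, a neuronal kinesin-3 that carries synaptic vesicle precursors, had 0.287 and 0.382 RPKM in PS and 2.93 and 3.65 in RS (log2 3.37 ± 0.25, edgeR adjusted p = 1.05e-05), on 26 and 34 reads in PS and 336 and 353 in RS. Kif5c, a heavy chain of conventional kinesin-1, had 0.937 and 0.882 RPKM against 4.16 and 3.82 (4.51-fold). Kif13a, a kinesin-3 of endosome transport, had 0.575 and 0.511 against 1.88 and 2.19 (3.84-fold), and Kif21a, a kinesin-4 that slows microtubule growth, had 0.519 and 0.411 against 1.54 and 1.45 (3.41-fold). Kif21b, the related kinesin-4, was 1.88-fold higher and, outside the rule for named genes, completes the count.

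The remaining kinesin-1 heavy chains were not called. Kif5b, the form found in most cells, had 3.62 and 2.78 RPKM in PS and 3.08 and 2.99 in RS, and Kif5a, a neuronal form, had 0.898 to 1.01 in all libraries. Kif13b, Kif16b and Kif1b had an adjusted p under 0.05 but differences under 1.5-fold (log2 -0.44, 0.43 and 0.44). Kif3c and Kifc2 had log2 differences of -0.72 and -0.72 with edgeR adjusted p of 0.0921 and 0.0655, and Kif1c and Kifc3 had -0.10 and 0.31. Within Kifc3, a minus-end directed kinesin, the reads were split by the authors between isoforms. The row of 1 isoform held 166 and 178 reads in PS and 513 and 507 in RS, whereas the row of the others held 437 and 582 in PS and 492 and 370 in RS. With 2 libraries a stage this shift was not tested. Kif3c overlaps 1110002L01Rik on the opposite strand.

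Of the members with no assigned role, Kif26b, a kinesin without motor activity, had 0.0948 and 0.122 RPKM in PS and 0.367 and 0.562 in RS on 8 to 49 reads (log2 2.12 ± 0.42, edgeR adjusted p = 0.00227). On the log2(RPKM + 1) scale, which shrinks changes of low genes, its difference was 0.40 (limma adjusted p = 0.0121) and under 1.5-fold. Kif26a had 0.299 to 0.469 RPKM in all libraries and was not called.

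Genes that work with kinesins moved in both directions. Over all genes tested, 30.4% rose and 27.6% fell, with a median log2 difference of 0.01, and no list was tested against these shares. Of the 4 kinesin light chains, which bind cargo to the kinesin-1 heavy chains, 1 rose and 2 fell. Klc3, known from the sperm tail midpiece, had 0.863 and 1.42 RPKM in PS and 16.0 and 11.7 in RS (12.6-fold, edgeR adjusted p = 2.02e-05). Klc2 had 47.4 and 54.1 against 22.0 and 26.2 (2.05-fold lower), and Klc1 was 1.64-fold lower. Of 20 subunits of cytoplasmic dynein and dynactin, the minus-end motor that opposes kinesins, 3 rose and 6 fell. The light chain Dynll2 was 6.11-fold and Dynlt3 3.28-fold higher in RS, and Dctn5 was 2.79-fold and the intraflagellar heavy chain Dync2h1 2.58-fold lower. Their median log2 difference was -0.32.

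Of 15 spindle partners of kinesins, 3 rose and 8 fell, with a median of -0.62 (all genes: 30.4% rose, 27.6% fell, median 0.01). Cenpe, itself a kinetochore kinesin, had 15.1 and 15.1 RPKM in PS and 28.6 and 33.2 in RS (2.11-fold), and cyclin B1 (Ccnb1) was 2.08-fold higher. Cdca8, a subunit of the Aurora B complex, had 80.8 and 87.6 against 20.3 and 19.5 (4.12-fold lower), and Prc1, which bundles midzone microtubules, had 98.6 and 96.4 against 24.9 and 27.2 (3.64-fold lower). Of 17 cargo adaptors tested, 2 rose and 5 fell, with a median of -0.29. Fez1, an adaptor of kinesin-1, was 5.44-fold and Mapk8ip1 1.82-fold higher, and the mitochondrial Rhot2 was 4.17-fold and the intraflagellar Ift20 3.95-fold lower.

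Promoter H3K27ac was read from the wild-type peak lists as the highest fold enrichment of an interval within 2 kb of a deposited start. Fold enrichment is the pileup of fragments at a summit against a constant background of the sample, with no input. An interval lay there in both PS replicates for 36 members and in both RS replicates for 33. In all 4 samples it was present for 33 of 42 members (78.6%, against 48.8% of all genes), and 80.5% of the members tested for RNA had it, against 73.6% of all genes tested for RNA. No interval was listed in any sample for 4 members (9.52%, against 36.9% of all), namely Kif12, Kif1a, Kif26b and Kif5a. Of these, Kif1a and Kif26b nonetheless rose in dKO RS. For Kifc3, the highest interval stood near different starts of the gene in the 2 stages. It had 12.3 and 14.8 in PS (chr8:95141858-95143079 in replicate 1) and 15.9 and 11.6 in RS (chr8:95111301-95114730 in replicate 1). The Kifc3 stage difference therefore does not compare a single promoter.

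In both PS samples and in neither RS sample, an interval was listed for 2 members (4.76%, against 2.13% of all genes). The reverse pattern was seen for 0 members (against 1.11%). Kif21a had fold enrichments of 7.41 and 9.87 in PS, while its RNA was higher in dKO RS. Kif3c, a kinesin-2 of neurons, had 4.12 and 5.48 in PS, near the lowest values listed (2.85 to 3.48 across samples), and 0.298 to 0.702 RPKM of RNA. The lists hold intervals above a threshold, so that 0 means none listed.

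**Figure D3:**
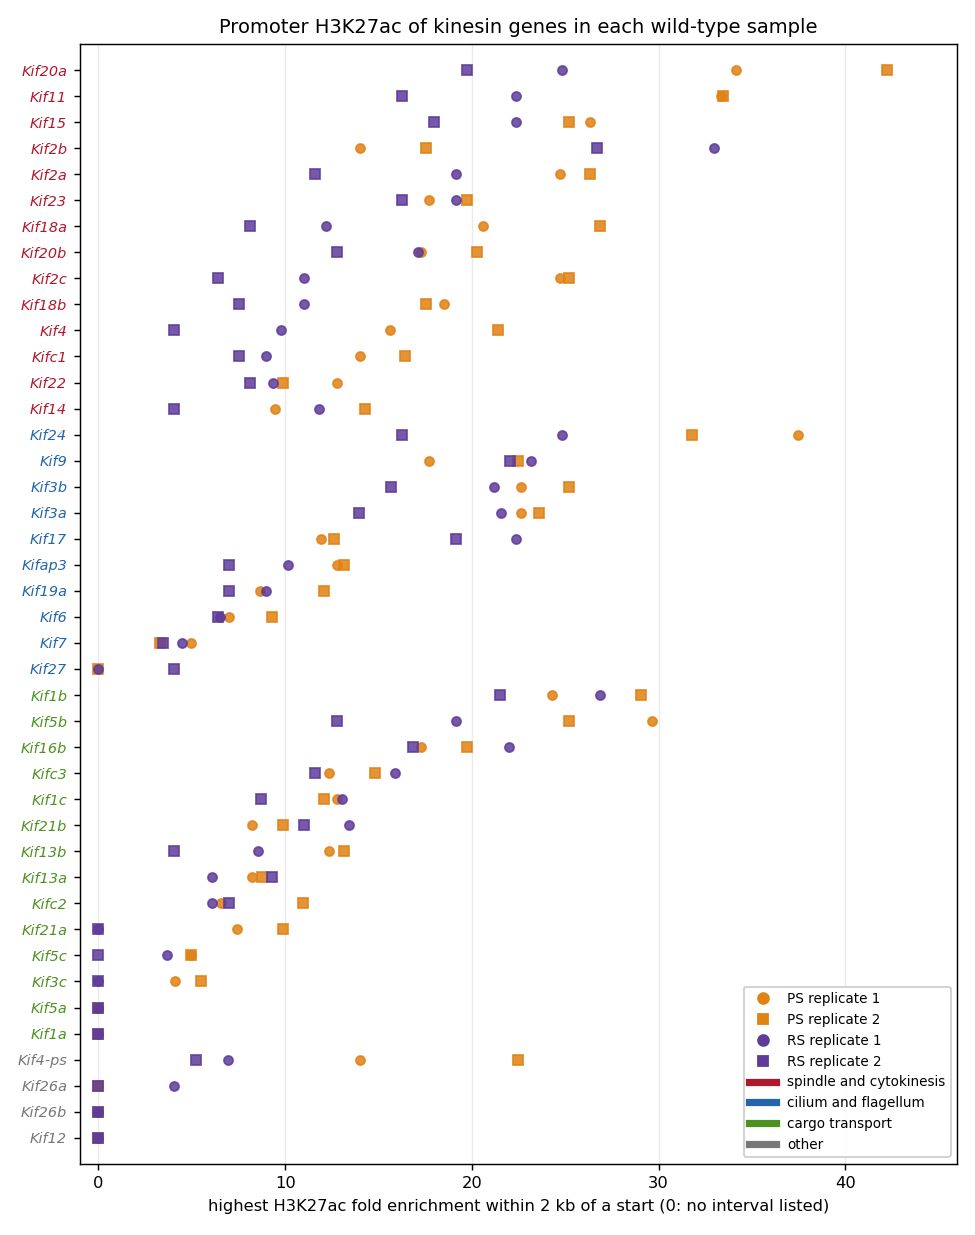
Highest H3K27ac fold enrichment within 2 kb of a start in each wild-type sample for all 42 members, with PS in orange and RS in purple, grouped by role; 0 means that no interval was listed. Kif11, Kif18a and Kif2c have both PS samples to the right of both RS samples, whereas Kif2b and Kif17 have both RS samples to the right.

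Stage differences in log2(1 + fold enrichment) were tested with limma over 13699 genes with an interval in at least 2 samples, and a sample with none listed was set to 0. Of 36 members tested, 1 was higher in RS (2.78%, against 5.23% of all) and 5 were lower (13.9%, against 15.8%), and both shares were near the background. Of these 5, Kif21a and Kif3c entered the test through their PS intervals alone, so that the filter and the 0 in RS fixed their direction, and nothing is read from their calls. Over the 11394 genes with an interval in all 4 samples, an alternative chosen after seeing the data, 2 of 33 members were higher (6.06%, against 8.28% of all) and 13 lower (39.4%, against 34.0%). The number of calls thus depended on which genes entered the fit. In that fit 9 of 14 spindle, 1 of 9 cilium and 2 of 9 cargo genes were lower. Sample medians of log2(1 + fold enrichment) over genes with a peak in all samples were 4.19 and 4.29 in PS and 4.04 and 3.66 in RS, so RS replicate 2 stood lowest and the median difference over all genes was -0.43. With each sample centred on its median, 5 members were higher (13.9%, against 17.3% of all) and 8 lower (22.2%, against 17.0%). These 8 include Kif21a and Kif3c, from whose calls nothing is read. Among the 33 members with an interval in every sample, 5 were higher after centring (15.2%, against 18.3%) and 6 lower (18.2%, against 16.2%). Of all calls over all genes, 50.4% were higher after centring in place of 24.9% as fitted. By limma, the lower calls were all lost without RS replicate 2 and were more numerous without RS replicate 1. Without PS replicate 1, and likewise without PS replicate 2, only Kif21a and Kif3c stayed called lower. Kif18a, Kif4-ps and Kif2c had log2 differences of -1.34, -1.74 and -1.48 without PS replicate 1. Without PS replicate 2 these were -0.975, -1.095 and -1.45, and neither fit called these genes. Leaving out any 1 sample left 0 called higher, with 0 to 2 at an unadjusted p under 0.05.

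Kif2b was called higher. Its start had fold enrichments of 14.0 and 17.5 in PS and 33.0 and 26.7 in RS (log2 difference 0.88 ± 0.20, limma adjusted p = 0.0456, and 0.00190 over genes with an interval in all samples). The interval spanned 2013 and 3113 bases in PS and 4878 and 4103 in RS, and that of RS replicate 1, chr11:91574608-91579485, covered the whole gene. The CCAAT box and the TGACG core capitalised above lie 44 and 62 bases before the start.

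Kif17 had 11.9 and 12.6 in PS and 22.4 and 19.2 in RS (log2 difference 0.71 ± 0.17), which missed the threshold as fitted (limma adjusted p = 0.0503) and passed it after median-centring (1.11, adjusted p = 0.00205) and over genes with an interval in all samples (adjusted p = 0.0249). Its full CRE starts 86 bases before the start. Kif2b and Kif17 were thus the members with the highest acetylation differences, and in the dKO Kif1a alone had a larger RNA rise than either. Kif9, Kif16b and Kif21b were called higher after median-centring too, from differences of 0.17, 0.06 and 0.40 as fitted. For Kif16b, both scored PS intervals covered the start (142901464 on chromosome 2). That of RS replicate 2 (chr2:142902313-142904253) lay upstream of it, and that of RS replicate 1 spanned both places. PS also had upstream intervals, of 12.3 and 16.4, so the Kif16b call does not compare the same interval.

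The other 3 members called lower were Kif18a, Kif4-ps and Kif2c. Kif18a had 20.6 and 26.9 in PS and 12.2 and 8.13 in RS (log2 difference -1.16 ± 0.27, limma adjusted p = 0.0489), and Kif4-ps had 14.0 and 22.5 against 6.92 and 5.22 (-1.42 ± 0.31, adjusted p = 0.0440). Kif2c had 24.7 and 25.2 against 10.99 and 6.39 (-1.46 ± 0.28, adjusted p = 0.0343). Kif4-ps was therefore lower in RS in both assays, Kif2c was lower in acetylation at its deposited start and higher in RNA, and Kif18a was lower in acetylation without a called RNA difference. Of the 14 spindle genes, all with an interval in every sample, 13 had a negative difference as fitted and 9 after centring, against 76.8% and 49.3% of all genes with an interval in every sample. Their median was -0.74 (-0.35 after centring) against -0.39 (0.01) over these genes. The 9 cilium genes with an interval in every sample had 7 negative differences as fitted and 2 after centring, and the 9 such cargo genes 6 and 2.

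Kif2c has a second RefSeq start 3852 bases downstream of the deposited one, at position 117178772 of chromosome 4, and the acetylation there ran in the opposite direction. Within 1 kb of that start the highest fold enrichment was 7.41 and 7.13 in PS and 16.3 and 16.3 in RS. The interval spanned chr4:117178281-117179085 in PS replicate 1 and chr4:117177197-117179661 in RS replicate 1, and lay in the gene. In PS the upstream start was the higher of the pair, and in RS the downstream one was, in both replicates of each stage. The promoter printed above is the downstream one, with GC content of 48.0% and a CpG ratio of 0.12. The RNA table holds 1 row for Kif2c, so RNA cannot be divided between the starts, and this comparison was chosen after its values were seen and was not tested. Of the 33 promoters counted, 31 lay within 500 bases of a deposited start, and Kif7 was the other exception.

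**Figure D4:**
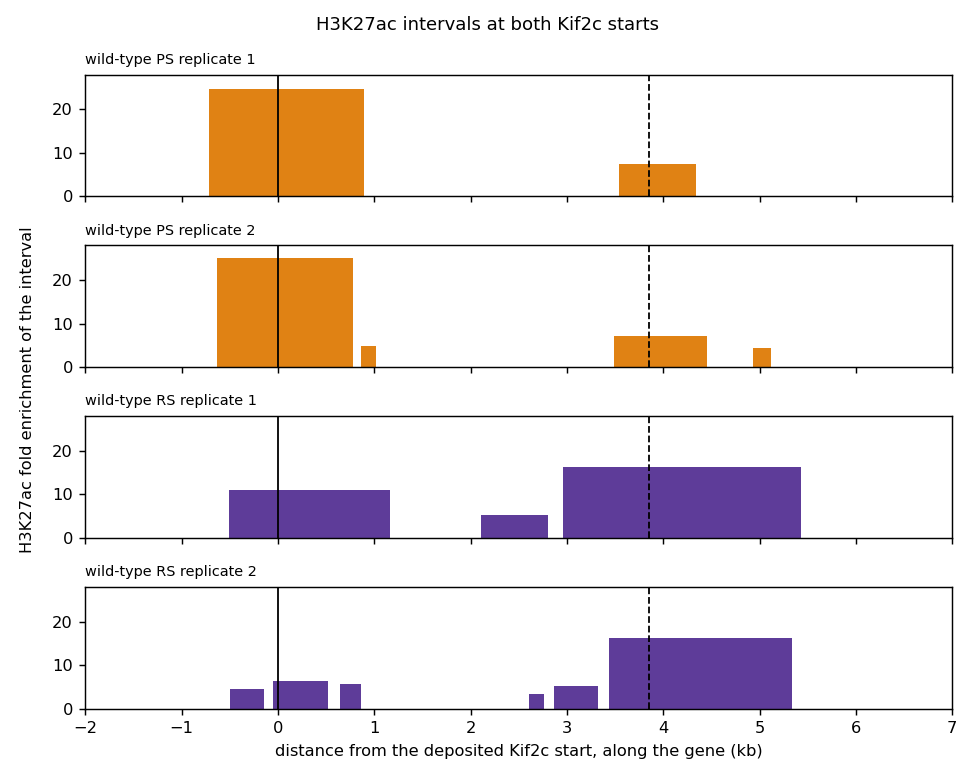
H3K27ac intervals around both Kif2c starts in each wild-type sample, as bars whose width is the interval and whose height is its fold enrichment, against the distance along the gene from the deposited start (solid line); the dashed line marks the downstream RefSeq start. The left interval is the taller in PS (24.7 and 25.2) and the right one in RS (16.3 and 16.3).

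Kif27 had no interval within 2 kb of its start apart from a weak one in RS replicate 2 (fold enrichment 4.06). A stronger interval lay upstream in all 4 samples, with 18.5 and 26.3 in PS and 29.3 and 20.9 in RS, such that the stages overlapped. It began 2170 to 3216 bases and ended 5024 to 5119 bases before the deposited start. RefSeq models of Kif27 in the same build reach from 58284727 to 58364745 on chromosome 13, beyond this interval, so it lies inside the longer models. Kif26b carried an intronic interval in PS (15.2 and 13.7, at chr1:178644771-178646188 in replicate 1), while none was listed there in RS.

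Across the whole of the loci, the kinesin genes held 120 and 129 intervals in the PS lists and 210 and 126 in the RS lists. The list with 210 also had the most intervals in all (74919, against 41095 to 49434 in the other samples), and the counts were not adjusted for the length of each list. Intervals away from a start numbered 64 and 78 in PS and 145 and 68 in RS. Another gene started within 2 kb for 9 members: Kif15, Kif1c, Kif20a, Kif21b, Kif24, Kif2a, Kif4, Kif9 and Kifc2. Their acetylation cannot be assigned to the kinesin alone. For Kif4, which shares its start region with Pdzd11, this bears on its 15.6 and 21.4 in PS and 9.76 and 4.06 in RS, at RNA levels under 2 RPKM.

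**Figure D5:**
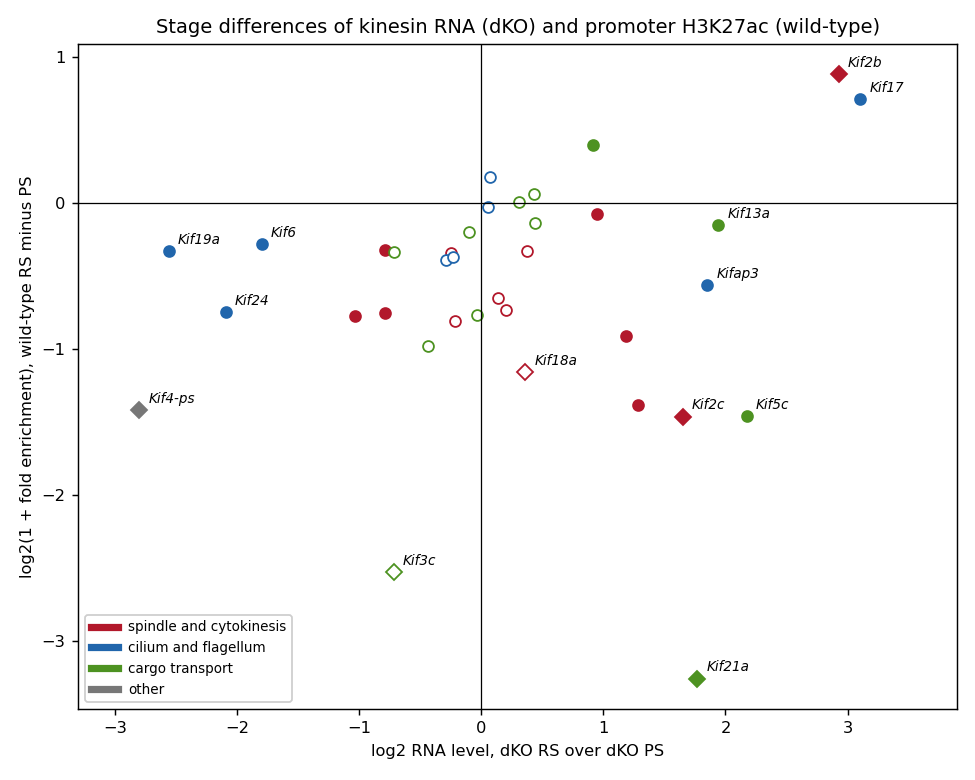
Log2 RNA difference in the dKO (RS over PS) against the difference in log2(1 + H3K27ac fold enrichment) in wild-type (RS minus PS) for the 36 members tested in both; colours mark roles, filled points were called for RNA and diamonds for H3K27ac. Kif2b and Kif17 stand at the upper right, Kif4-ps at the lower left, and Kif2c, Kif5c and Kif21a at the lower right. Kif21a and Kif3c had no interval listed in RS, and Kif5c, not called for H3K27ac, had none in RS replicate 2. For Kifc3, the PS and RS enrichments come from different starts.

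The calls of both assays were set side by side for members with an interval in every sample, using the fit over such genes. Of the 9 that rose in dKO RS, 2 were higher in wild-type acetylation (Kif2b and Kif17; 22.2%, against 29.0% of all genes that rose), 3 were lower (Kif2c, Kif4 and Kif18b; 33.3%, against 14.8%) and 4 were not called. Of the 7 that fell, 0 were higher (against 0.73%), 4 were lower (Kif4-ps, Kif11, Kif20a and Kif24; 57.1%, against 46.7%) and 3 were not called. With so few members, no difference from the shares over all genes is claimed. Kif11, Kif20a and Kif24 had among the highest enrichments of the family in PS, at 33.3 and 33.4, 34.2 and 42.2, and 37.5 and 31.8, and lower values in RS, at 22.4 and 16.3, 24.8 and 19.7, and 24.8 and 16.3; as fitted over 13699 genes none of the 3 passed the test (limma adjusted p = 0.0598, 0.0626 and 0.0996), and over genes with an interval in all samples each did (0.00366, 0.00255 and 0.00420). Kif19a and Kif6, with the deepest RNA falls among the cilium genes besides Kif24, had 8.64 and 12.1 against 8.95 and 6.97, and 6.996 and 9.32 against 6.51 and 6.39, and the Kif19a stages overlapped. The assays come from different genotypes, and genotype and assay cannot be told apart here.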

How the data were processed

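H3K27ac ChIP-seq (wild-type) and RNA-seq (dKO) of PS and RS were analysed, 2 samples per group, grouped by the sample labels. The authors aligned reads to mm10 (processing notes: Bowtie 1.1.1, MACS2 2.1.0.20140616, STAR 2.4.2a) and called peaks in each sample. The deposited peak lists hold the pileup signal, the fold enrichment, a ratio to a constant background, and −log10 p and q; read totals are not given, so ChIP depth is unknown. The deposited RNA tables hold read counts from unique alignments, split between RefSeq isoforms by expectation maximisation without strand. They also hold RPKM, normalized by the authors for length and depth.

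Isoform rows were summed per gene. RNA was tested with edgeR 4.0.16 (TMM, on genes having 10 or more counts in 2 or more samples) and H3K27ac with limma 3.58.1 on log2(1 + fold enrichment), both over all genes and tested on simulated data. The standard errors were derived from the tests. For RNA, each is the size of the log2 difference divided by the square root of edgeR's F statistic. For H3K27ac, each is the difference divided by limma's moderated t. R 4.3.3, DESeq2 1.42.0, Python 3.11.15, pandas 2.3.3, numpy 2.4.6 and matplotlib 3.10.9 were used. With 2 samples against 2, the smallest p from an exact two-sided permutation of a value is 0.333. The study calls the replicates of both assays biological; the labels name no animals, and p-values measure the spread between these samples. Counting limits cover counting error only.

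Members and gene lists were chosen with earlier results of these data known. Named were the 8 called members with the largest change in each direction, the 6 with the highest mean RPKM per stage, members listed beforehand from work on germ cells, spindle and cilium (such as Kif17, Kifc1, Kif3a, Kif9 and Kif18a, with Kifc5b), members with promoter peaks in a single stage, and up to 2 called genes per direction of each list of other pathway genes. Other members are given as ranges or to complete a count. The Kif2c, Kif27 and Kif26b intervals and the printed promoters were chosen after values were seen. Promoter sequences are RefSeq's (GRCm38.p6, the files' build). Alternatives covered normalization, filters, DESeq2, limma on RPKM, isoform rows, windows, peak threshold, the genes tested for H3K27ac, centring, a replicate block and leaving out each sample.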

Additional observations from a re-analysis of the deposited data

How the results depend on the processing

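RNA calls moved little: under the 10 alternatives 13 to 15 kinesin genes were higher in RS and 6 to 8 lower, and of 260 values for single genes 255 kept direction and call. The rest were Kif9 (log2 -0.126 to 0.305 leaving out each replicate) and Kifc1 (-0.38 to 0.115), which turned in sign, and Kif20b, Kif26b and Kif3c, which crossed the threshold once each. The count of members with a promoter interval stayed at 34 to 38 in PS and 29 to 36 in RS. H3K27ac calls depended on the setting. Higher calls numbered 1 as reported, 2 with a 5 kb window, with −log10 p of at least 5, with the summit within 2 kb or over genes with an interval in all 4 samples (these last settings chosen after seeing the data), 5 after median-centring, 0 with a replicate block and 0 to 0 leaving out each replicate. Lower calls numbered 5 as reported, 8 after median-centring, 13 over genes with an interval in all 4 samples and 0 to 13 leaving out each replicate, with 0 without RS replicate 2 and 13 without RS replicate 1. Of 64 H3K27ac values for the 6 called members, 44 kept their call and 20 lost it, and none turned in sign. These 6, like the 8 called lower after median-centring, include Kif21a and Kif3c, whose direction the filter and the 0 in RS fixed. Their share of the kept calls and signs is therefore no measure of stability. A block for replicate number gave 14 higher and 8 lower genes for RNA, adding Kifc2; for H3K27ac it gave 0 higher and 4 lower, losing Kif2b (adjusted p = 0.0757) and Kif18a (0.0517). The deviations of same-numbered samples correlated at 0.225 for RNA and 0.003 for H3K27ac, and nothing in the labels says that a number marks a mouse. Leaving out a sample leaves a stage with 1 sample, assumed to vary like the other stage. Depth is unknown for H3K27ac, and genes with under 50 reads in a library, such as Kif26b, have the least precise RNA values.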
